A study of Homo sapiens with 12 samples.

Results

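The MAP kinase feedback phosphatases and Sprouty genes followed here are DUSP1, DUSP4, DUSP5, DUSP6, DUSP10, SPRY2, SPRY4, SPRED1 and SPRED2. They were chosen by symbol, and all 9 were found among the 62710 genes of the tables and among the 18355 genes with enough counts to test. Total RNA was sequenced from 3 established human hepatocellular carcinoma lines, PLC/PRF/5, SNU475 and HLF. In each line, cells kept for 24 h with lactic acid at 20 mM were set against control cells, with 2 libraries per group and 12 in all. The labels name no other treatment, transgene or genetic change. They leave unsaid whether paired libraries are independent cultures, and the p-values then speak only for the variation among these libraries, some of which can be technical. The study's title concerns glycolysis and lactylation of histone H4, and the comparisons ask how these genes differ with lactate in each line and between the untreated lines.

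The RAS-RAF-MEK-ERK cascade carries growth factor signals from receptor tyrosine kinases to the nucleus, and 2 families of inducible inhibitors close feedback loops on it. Dual-specificity phosphatases remove the activating phosphates from ERK, p38 and JNK, the MAP kinases. DUSP1, DUSP4 and DUSP5 are nuclear, DUSP6 is cytoplasmic and prefers ERK, and DUSP10 acts mainly on p38 and JNK. Sprouty proteins (SPRY2, SPRY4) and their relatives with an EVH1 domain (SPRED1, SPRED2) act further up, between the receptors and RAF. Several of these genes are transcribed in response to ERK activity and are widely used as a transcript readout of it, and loss of Sprouty and Spred expression has been described in hepatocellular carcinoma.

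RefSeq promoter windows (build GRCh38.p14) were found for 7 of the 9 genes. A window runs from 250 bases before the annotated start to 50 bases after it. Those of DUSP1, SPRY4 and DUSP6 are shown because DUSP1 and SPRY4 gave the largest lactate differences described below and DUSP6 is the ERK-selective phosphatase beside which they are read. Capitals mark matches, on either strand, to TGACG (the cyclic AMP response half-site), CCGGAAG (an ETS-type motif), TGANTCA (AP-1) or the CArG box.
DUSP1 (chr5:172771146-172771445, minus strand): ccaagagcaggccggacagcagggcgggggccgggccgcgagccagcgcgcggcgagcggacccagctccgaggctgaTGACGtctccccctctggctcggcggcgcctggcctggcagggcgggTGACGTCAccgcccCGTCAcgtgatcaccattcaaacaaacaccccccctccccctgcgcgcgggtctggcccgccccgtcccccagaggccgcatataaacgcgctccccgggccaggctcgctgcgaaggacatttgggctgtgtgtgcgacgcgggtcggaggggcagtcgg
SPRY4 (chr5:142324198-142324497, minus strand): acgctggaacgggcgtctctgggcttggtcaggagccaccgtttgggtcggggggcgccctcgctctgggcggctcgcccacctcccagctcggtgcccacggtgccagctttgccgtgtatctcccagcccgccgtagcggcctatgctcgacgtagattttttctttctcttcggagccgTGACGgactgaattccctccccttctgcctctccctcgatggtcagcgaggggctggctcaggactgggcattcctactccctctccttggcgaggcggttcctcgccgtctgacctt
DUSP6 (chr12:89352452-89352751, minus strand): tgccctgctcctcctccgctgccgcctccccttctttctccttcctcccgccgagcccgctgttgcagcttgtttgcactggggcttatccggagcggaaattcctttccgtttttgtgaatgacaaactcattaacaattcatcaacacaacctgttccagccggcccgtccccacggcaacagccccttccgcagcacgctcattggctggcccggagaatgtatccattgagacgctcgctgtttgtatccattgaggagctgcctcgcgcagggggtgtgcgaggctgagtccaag
The DUSP1 window held 4 matches to TGACG, and 2 of them lie in the full palindrome TGACGTCA, whose first base is at position -125 from the start. The SPRY4 window held 1 match to TGACG, and the DUSP6 window held none of these motifs. Of the windows not shown, 1 each of DUSP10, SPRY2 and SPRED2 also held 1 match to TGACG, another SPRED2 window held 2 matches to TGANTCA, and that of SPRED1 held none. Among all 35116 windows, 24.6% held TGACG, 1.85% the full palindrome, 10.3% CCGGAAG, 7.71% TGANTCA and 1.29% a CArG box. These matches describe letters and not binding.

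Library totals lay between 16533437 and 22187849 expected counts, and the 9 genes had between 25.6 counts (DUSP6 in the first SNU475 lactate library) and 4635 counts (DUSP4 in the first PLC/PRF/5 lactate library). The lines were separated by the first 2 principal components (50% and 38.1% of the variance). The second SNU475 lactate library stood apart on the third component, at 87.5, against -51.2 for the first SNU475 lactate library and 14.8 and -56.0 for the SNU475 controls. The SD of the log2 differences between replicates over all tested genes was 1.07 in SNU475 lactate and 0.51 to 0.85 in the other groups. The mitochondrial share of counts, a sign of library quality, was 8.50% and 13.9% in the SNU475 lactate libraries and 7.996% and 15.1% in the SNU475 controls, so that it was high in both second libraries of that line. The HLF controls also differed in it, at 9.52% and 3.39%, against 5.49% and 3.93% in the HLF lactate libraries. In PLC/PRF/5 it lay between 6.21% and 7.08%. Hepatocyte markers were abundant in PLC/PRF/5 alone. Summed over the 10 markers on the list, they reached 3164 to 7076 TPM there, against 5.42 to 8.86 TPM in SNU475 and 10.8 to 18.0 TPM in HLF, where APOA1, APOB and TTR were at 0 in all 8 libraries. The labelled tissue, liver, is thus not visible in these transcripts of SNU475 and HLF. In bulk RNA, fewer cells of a type and less RNA per cell cannot be told apart.

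Levels are given per gene length as TPM, so that genes can be compared within a library. Among the untreated PLC/PRF/5 libraries, DUSP1 was the most abundant of the 9 at 128 and 81.5 TPM, followed by DUSP4 at 69.9 and 49.5 TPM. In untreated SNU475, the level of DUSP5 was 15.1 and 11.2 TPM, that of DUSP1 13.4 and 11.2 TPM, that of DUSP10 12.7 and 6.32 TPM and that of SPRED2 9.90 and 9.22 TPM, with no gene clearly first. In untreated HLF, DUSP1 led again at 43.2 and 72.3 TPM, with SPRED2 at 25.6 and 42.0 TPM and DUSP5 at 23.0 and 37.0 TPM. The least abundant of the 9 was SPRY4 in untreated SNU475, at 0.78 and 0.87 TPM.

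The make-up of the phosphatase family therefore differed by line. Over the 10 MAP kinase phosphatase genes (the 5 members with DUSP2, DUSP7, DUSP8, DUSP9 and DUSP16), DUSP4 made up 23.5% and 22.0% of the summed TPM in untreated PLC/PRF/5, 9.48% and 11.6% in SNU475 and 3.56% and 2.95% in HLF. DUSP10 took 2.44% and 2.09% of the family in untreated PLC/PRF/5, 21.2% and 12.4% in SNU475 and 4.11% and 2.73% in HLF. DUSP1 and DUSP5 together held most of the family's TPM in HLF. Among the 7 Sprouty and Spred genes, SPRED2 was the largest in HLF and SNU475. In untreated PLC/PRF/5 the largest share belonged instead to SPRY1, a Sprouty gene outside the 9, at 31.5% and 31.2%.

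**Figure D1:**
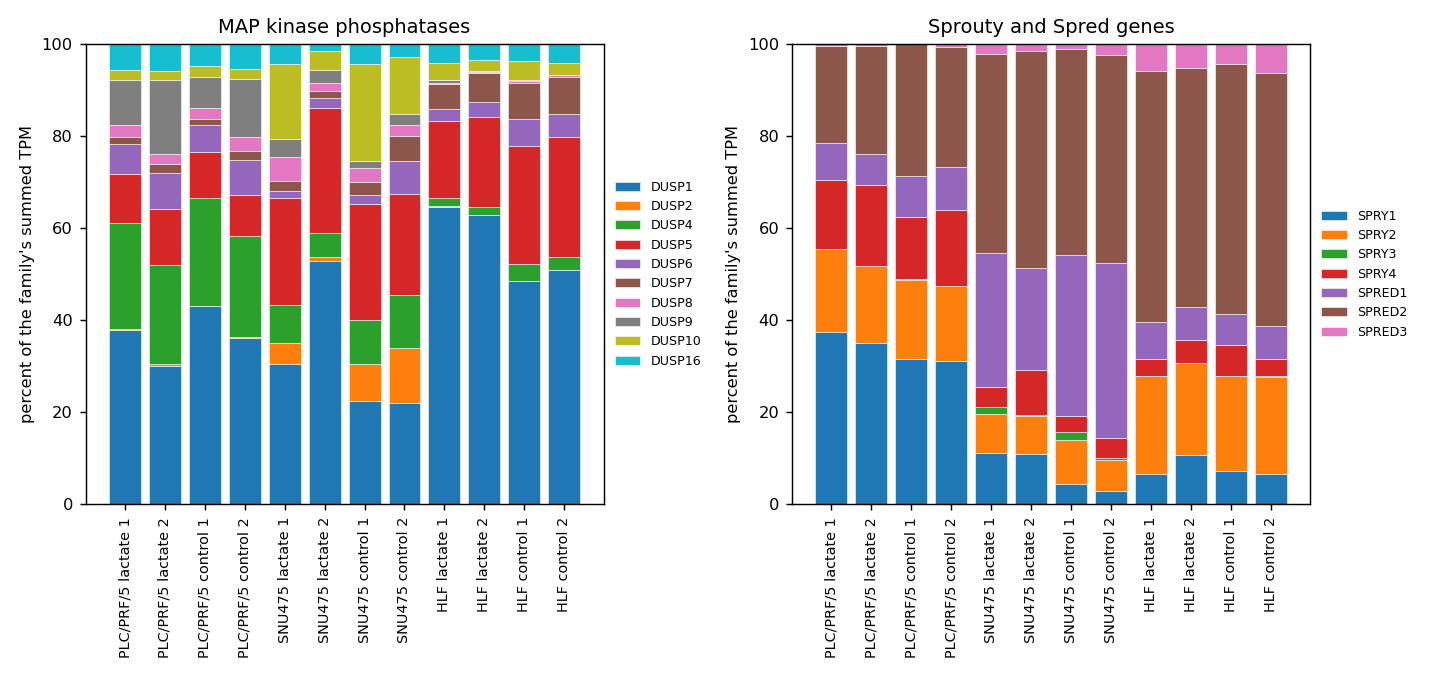
Stacked bars give the percent of the summed TPM of 10 MAP kinase phosphatase genes (left) and 7 Sprouty and Spred genes (right) that each gene holds in each of the 12 libraries. DUSP4 and SPRY1 are wide bands in PLC/PRF/5 and thin ones in HLF, SPRED1 and DUSP10 are widest in SNU475, and the DUSP1 band of the second SNU475 lactate library (52.9%) is wider than that of the first (30.6%).

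The untreated lines differed in 2 of the 9 genes between PLC/PRF/5 and HLF, in 8 between PLC/PRF/5 and SNU475 and in 7 between SNU475 and HLF. A gene is called where the edgeR quasi-likelihood test across all genes gave a Benjamini-Hochberg adjusted p under 0.05. Of all tested genes 43.0%, 48.7% and 39.0% were called in the same 3 comparisons, which share control libraries. By direction, PLC/PRF/5 was higher than HLF in 2 of the 9 (21.7% of all tested genes) and lower in 0 (21.3%), higher than SNU475 in 6 (22.4%) and lower in 2 (26.3%), and SNU475 was higher than HLF in 3 (21.9%) and lower in 4 (17.2%). Libraries of the 2 lines did not overlap for 6, 8 and 9 of the 9 genes, beside 75.8%, 77.9% and 68.6% of all tested genes. The median log2 fold change of the 9 was 0.39, 2.40 and -1.11 in that order, beside 0, -0.03 and 0 over all tested genes. Fold changes below are on the log2 scale with their standard error (SE), and levels are CPM (counts per TMM-scaled library size), with the first library of a group before the second. Leaving out 1 of the controls compared leaves a group of 1 library, and fewer of all tested genes were then called.

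Of the nuclear phosphatases, DUSP4 separated all 3 lines. It had 256 and 175 CPM in PLC/PRF/5, 26.6 and 34.6 CPM in SNU475 and 16.1 and 16.2 CPM in HLF, with no overlap between lines. DUSP4 was 13.3-fold higher in PLC/PRF/5 than in HLF (log2 3.74 ± 0.30, adjusted p = 2.17e-06), higher by 2.81 ± 0.29 in PLC/PRF/5 than in SNU475 (adjusted p = 1.43e-05) and higher by 0.92 ± 0.28 in SNU475 than in HLF (adjusted p = 0.0203). The last of these was lost without the second SNU475 control (0.74, adjusted p = 0.112) and without either HLF control (adjusted p = 0.0784 and 0.0870). DUSP4 was the only one of the 9 called in all 12 fits that each left out 1 library for PLC/PRF/5 against HLF.

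DUSP1, the immediate early member of the family, had 155 and 95.8 CPM in PLC/PRF/5, 20.8 and 21.7 CPM in SNU475 and 73.4 and 92.4 CPM in HLF. Both SNU475 libraries lay below all libraries of the other lines. DUSP1 was higher in PLC/PRF/5 than in SNU475 by 2.56 ± 0.54 (adjusted p = 0.00249) and lower in SNU475 than in HLF by 1.96 (log2 -1.96 ± 0.53, adjusted p = 0.0129), while PLC/PRF/5 and HLF were not separated (0.60 ± 0.51, adjusted p = 0.377). The SNU475 difference from HLF did not pass without either SNU475 control (adjusted p = 0.0584 and 0.0563) or the second HLF control (0.0657), and the PLC/PRF/5 difference from HLF passed without the second SNU475 lactate library (0.63, adjusted p = 0.0420). DUSP5, a nuclear phosphatase for ERK, had 45.3 and 29.5 CPM in PLC/PRF/5, 29.6 and 27.4 CPM in SNU475 and 49.4 and 59.7 CPM in HLF. HLF libraries were the highest, but none of the 3 differences of DUSP5 passed the test (adjusted p = 0.0987 to 0.464). That between SNU475 and HLF passed without either SNU475 lactate library (adjusted p = 0.00457 and 0.00528), which enters only through the shared spread, with the 2 groups fitted alone (0.0201) and without the low-count filter (0.00532).

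DUSP6 followed the order PLC/PRF/5, HLF, SNU475. Its level was 31.4 and 29.3 CPM in PLC/PRF/5, 2.76 and 6.85 CPM in SNU475 and 13.6 and 10.3 CPM in HLF, without overlap. Only the ends of that order were separated by the test, PLC/PRF/5 being higher than SNU475 by 2.66 ± 0.57 (adjusted p = 0.00250). Each neighbouring pair fell short, with 1.35 ± 0.53 for PLC/PRF/5 over HLF (adjusted p = 0.0610) and -1.32 ± 0.55 for SNU475 over HLF (adjusted p = 0.0788). With the replicate number as a block shared across the lines, the SNU475 difference from HLF was -1.43 and passed (adjusted p = 0.0488). It also passed without the low-count filter (-1.28, adjusted p = 0.00195). With 1 library left out at a time, the SNU475 difference from HLF lay between -2.10, without the second SNU475 control, and -0.80. That of PLC/PRF/5 from HLF passed with DESeq2 (1.40, adjusted p = 0.0369) and without any 1 of the 4 SNU475 libraries (adjusted p = 0.00419 to 0.0381).

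DUSP10, the phosphatase for p38 and JNK, ran the other way. It had 10.8 and 6.22 CPM in PLC/PRF/5, 24.0 and 13.3 CPM in SNU475 and 7.65 and 6.59 CPM in HLF, so that SNU475 was highest. It was lower in PLC/PRF/5 than in SNU475 (-1.13 ± 0.37, adjusted p = 0.0255) and higher in SNU475 than in HLF (1.39 ± 0.38, adjusted p = 0.0127). Without the first SNU475 control they were -0.64 (adjusted p = 0.229) and 0.90 (adjusted p = 0.116). The PLC/PRF/5 call was also lost without the second PLC/PRF/5 control (-0.78, adjusted p = 0.207) and the HLF call without the second HLF control (1.28, adjusted p = 0.0855).

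The Sprouty genes were lowest in SNU475. SPRY2, which binds adaptors and ubiquitin ligases downstream of receptors, had 19.8 and 16.8 CPM in PLC/PRF/5, 3.82 and 3.11 CPM in SNU475 and 19.5 and 24.2 CPM in HLF. It was higher in PLC/PRF/5 than in SNU475 by 2.40 ± 0.33 (adjusted p = 0.000146) and lower in SNU475 than in HLF (-2.65 ± 0.34, adjusted p = 0.000108). PLC/PRF/5 and HLF overlapped and were not separated (-0.25 ± 0.31, adjusted p = 0.541).

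SPRY4, a Sprouty protein that acts between receptor and RAF, separated all 3 lines. Its level was 34.7 and 37.8 CPM in PLC/PRF/5, 3.21 and 4.49 CPM in SNU475 and 13.8 and 9.75 CPM in HLF, with no overlap. It was higher in PLC/PRF/5 than in SNU475 by 3.24 ± 0.56 (adjusted p = 0.000620), higher in PLC/PRF/5 than in HLF by 1.62 ± 0.51 (adjusted p = 0.0236) and lower in SNU475 than in HLF (-1.62 ± 0.54, adjusted p = 0.0324). Both calls with HLF were lost without any 1 of the 4 control libraries compared. The fold change was then 1.40 to 1.93 for PLC/PRF/5 over HLF and -1.86 to -1.31 for SNU475 over HLF. The call between PLC/PRF/5 and SNU475 stood in all 12 fits that each left out 1 library.

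The 2 Spred genes differed between lines in opposite directions. SPRED1, which brings the RAS inhibitor neurofibromin to the membrane, had 33.5 and 28.96 CPM in PLC/PRF/5, 44.0 and 59.7 CPM in SNU475 and 20.7 and 27.1 CPM in HLF. It was higher in SNU475 than in HLF by 1.12 ± 0.27 (adjusted p = 0.00659) and lower in PLC/PRF/5 than in SNU475 (-0.73 ± 0.27, adjusted p = 0.0389). The PLC/PRF/5 call stood in only 5 of the 12 fits that each left out 1 library, with -0.49 (adjusted p = 0.235) without the second SNU475 control, and that with HLF fell short without the first HLF control (adjusted p = 0.0547). SPRED2, a close relative of SPRED1, had 65.3 and 54.8 CPM in PLC/PRF/5, 30.7 and 34.8 CPM in SNU475 and 61.1 and 80.2 CPM in HLF, so that both SNU475 libraries were lowest. It was higher in PLC/PRF/5 than in SNU475 by 0.88 ± 0.21 (adjusted p = 0.00448) and lower in SNU475 than in HLF (-1.11 ± 0.21, adjusted p = 0.00142).

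The scale bears on calls of DUSP4, DUSP5, DUSP6, DUSP10 and SPRED1. On log2(TPM + 0.5) with limma, SPRED1 was at -0.10 (adjusted p = 0.816) and DUSP10 at -0.58 (adjusted p = 0.269) for PLC/PRF/5 over SNU475, and their differences for SNU475 over HLF were 0.81 (adjusted p = 0.0604) and 1.15 (adjusted p = 0.0520). DUSP4 for SNU475 over HLF was 0.60 (adjusted p = 0.127) on that scale. Not called on the count scale but called on that one were DUSP5 for SNU475 over HLF (-1.14, adjusted p = 0.0470) and DUSP6 for PLC/PRF/5 over HLF (1.45, adjusted p = 0.0288).

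**Figure D2:**
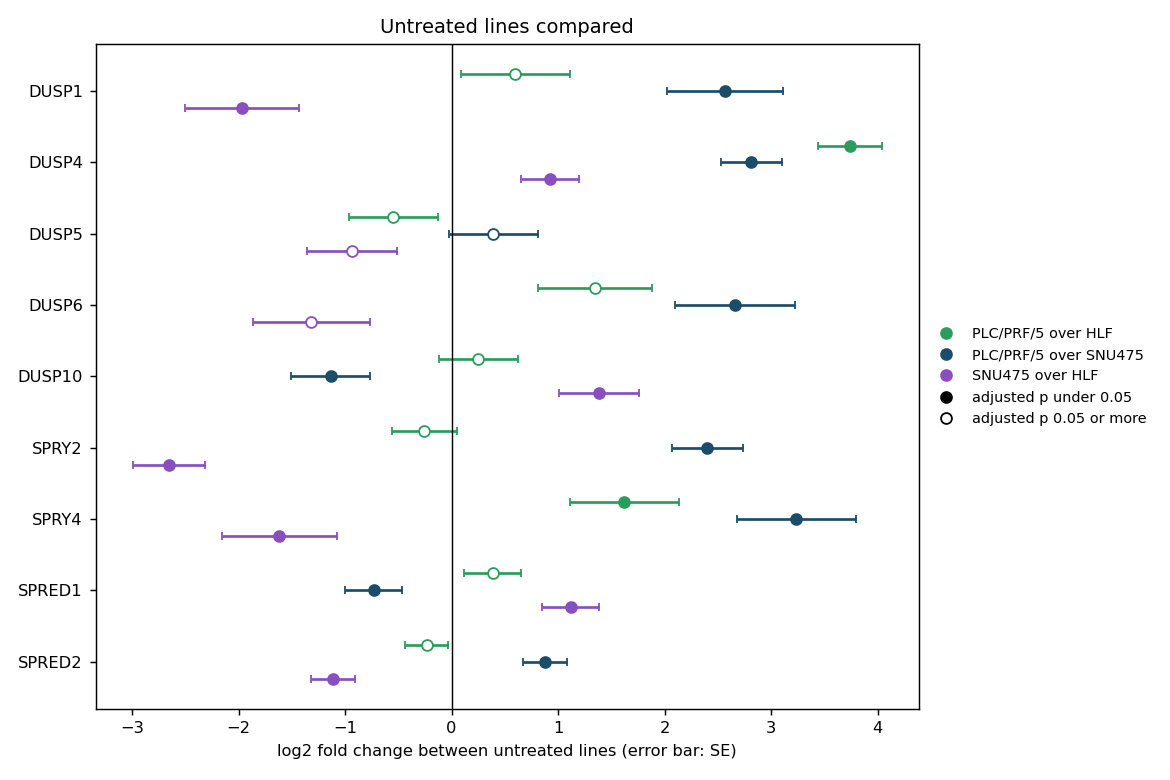
Points give the log2 fold change of each gene between untreated lines with its SE as a bar, filled where the adjusted p was under 0.05. DUSP4 and SPRY4 are filled in all 3 comparisons, DUSP5 in none, and DUSP10 and SPRED1 have signs opposite to SPRY2 and SPRED2 in both comparisons with SNU475.

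None of the 9 genes was called for lactate in PLC/PRF/5, in SNU475 or in HLF, where the share of all tested genes called was 0.00% in each line. With the 2 groups of a line fitted alone, none of the 9 was called either. The share of all tested genes called was then 3.70% in PLC/PRF/5, 0.00% in SNU475 and 0.00662% in HLF. For the mean of the 3 effects 0 of the 9 were called, beside 0.420% of all tested genes, and for the interaction of lactate with line 0 of the 9 and 0.00% of all. At an unadjusted p under 0.05 the edgeR test marked 0 of the 9 genes in PLC/PRF/5, 4 in SNU475 and 1 in HLF, against 5.92%, 11.6% and 6.28% of all tested genes. DESeq2 called 1 of the 9, DUSP1 in SNU475 (2.11, adjusted p = 0.0120), where it called 1.49% of all tested genes. It called 0 of the 9 in PLC/PRF/5 and in HLF, beside 0.496% and 0.223% of all. With the replicate number as a block the edgeR test also called 0 of the 9 in each line and for the mean effect, beside 0.659% of all tested genes in PLC/PRF/5, 0.251% in SNU475, 0.0163% in HLF and 6.91% for the mean effect. Lactate and control libraries did not overlap for 3 of the 9 genes in PLC/PRF/5, 4 in SNU475 and 6 in HLF, where 50.3%, 31.6% and 39.6% of all tested genes did not. The median log2 fold change of the 9 was -0.06, 0.16 and -0.22, beside 0.03, 0.01 and 0 over all tested genes.

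In SNU475, DUSP1 had 31.3 and 151 CPM with lactate, against 20.8 and 21.7 CPM in controls. Both lactate libraries were above both controls, and the second was far above the first. The fold change was 2.10 ± 0.54 (unadjusted p = 0.00226, adjusted p = 0.276), and without the second lactate library it was 0.55 ± 0.29 (adjusted p = 0.520).

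SPRY4 in SNU475 showed the same split, with 4.60 and 21.6 CPM with lactate, against 3.21 and 4.49 CPM in controls. The first lactate library was just above the higher control. Its fold change was 1.76 ± 0.54 (unadjusted p = 0.00706, adjusted p = 0.283), and 0.25 ± 0.33 without the second lactate library.

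DUSP5 in SNU475 had 30.1 and 97.9 CPM with lactate, against 29.6 and 27.4 CPM in controls, so that again only the second library stood clear. The fold change was 1.17 ± 0.42 (unadjusted p = 0.0178, adjusted p = 0.321), and 0.07 ± 0.27 without that library. SPRY2 had 3.86 and 8.001 CPM with lactate, against 3.82 and 3.11 CPM in controls, a fold change of 0.77 ± 0.33 (unadjusted p = 0.0401, adjusted p = 0.406) that was 0.15 ± 0.30 without that library.

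Leaving out the first SNU475 lactate library instead, with the lone second one assumed to vary like the other groups, gave 4 calls, DUSP1 at 2.82 (adjusted p = 0.00053), SPRY4 at 2.49, DUSP5 at 1.78 and SPRY2 at 1.21. In that fit 9.21% of all tested genes were called, against 0.00% with all libraries. Between the 2 SNU475 lactate libraries the log2 difference, second over first, was 2.26 for DUSP1, 2.20 for SPRY4, 2.14 for DUSP6 and 1.70 for DUSP5. These sizes stood at the 94.9th, 94.3rd, 93.9th and 88.9th percentile of all tested genes. The part of that library's other departures in these values was not tested.

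The other 5 genes of SNU475 overlapped between lactate and control. DUSP6 had 1.62 and 7.46 CPM with lactate, against 2.76 and 6.85 CPM in controls, so that the second library was higher than the first in both groups (fold change -0.09 ± 0.56, and -1.57 ± 0.51 without the second lactate library, adjusted p = 0.450). DUSP4 had 24.9 and 43.8 CPM with lactate, against 26.6 and 34.6 CPM in controls. DUSP10 had 22.0 and 14.0 CPM with lactate, against 24.0 and 13.3 CPM in controls. In each gene the libraries of 1 group spanned those of the other, with fold changes of 0.16 ± 0.27 and -0.05 ± 0.37. SPRED1 had 43.3 and 71.1 CPM with lactate, against 44.0 and 59.7 CPM in controls, and SPRED2 had 32.5 and 39.7 CPM, against 30.7 and 34.8 CPM in controls, each with a fold change of 0.14.

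In HLF, 8 of the 9 fold changes were negative, and only that of DUSP1 was positive, beside 48.0% positive over all tested genes. DUSP4 had 9.93 and 9.84 CPM with lactate, against 16.1 and 16.2 CPM in controls. In CPM the replicates agreed closely, and the groups were far apart relative to them. In TPM the controls lay further from each other, at 3.18 and 4.20 TPM, against 2.62 and 2.52 TPM with lactate. The fold change was -0.71 ± 0.28 (unadjusted p = 0.0273, adjusted p = 0.773), and it stayed between -0.71 and -0.69 in the 12 fits that each left out 1 library. DUSP1 had 111 and 120 CPM with lactate, against 73.4 and 92.4 CPM in controls, a fold change of 0.48 ± 0.51 (adjusted p = 0.929).

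DUSP6 in HLF had 8.44 and 8.35 CPM with lactate, against 13.6 and 10.3 CPM in controls, and SPRY4 had 7.76 and 9.47 CPM with lactate, against 13.8 and 9.75 CPM. In both genes the lactate libraries lay below both controls, and the fold changes were -0.51 ± 0.53 and -0.45 ± 0.51 (adjusted p = 0.927 and 0.940). DUSP5 had 36.0 and 47.0 CPM with lactate, against 49.4 and 59.7 CPM in controls, and SPRY2 had 18.9 and 18.6 CPM, against 19.5 and 24.2 CPM in controls. These groups did not overlap either, with fold changes of -0.40 ± 0.41 and -0.22 ± 0.31. DUSP10, SPRED1 and SPRED2 overlapped in HLF, with fold changes between -0.10 and -0.05.

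In PLC/PRF/5, the line with the highest DUSP4 and SPRY4, DUSP4 had 179 and 156 CPM with lactate, against 256 and 175 CPM in controls. The higher lactate library lay above the lower control, and the fold change was -0.36 ± 0.27 (adjusted p = 0.959). SPRY4 had 39.1 and 47.5 CPM with lactate, against 34.7 and 37.8 CPM in controls, and SPRY2 had 21.4 and 20.2 CPM, against 19.8 and 16.8 CPM in controls. Both genes were above both controls in both lactate libraries, with fold changes of 0.26 ± 0.49 and 0.19 ± 0.31. DUSP1 had 98.1 and 71.9 CPM with lactate, against 155 and 95.8 CPM in controls, which overlapped (-0.56 ± 0.51, adjusted p = 0.975).

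For the other genes of PLC/PRF/5 no fold change exceeded its SE by much. DUSP6 had 26.4 and 32.5 CPM with lactate, against 31.4 and 29.3 CPM in controls, and DUSP5 had 35.2 and 37.3 CPM, against 45.3 and 29.5 CPM in controls, with fold changes of -0.05 and -0.04. DUSP10 had 6.93 and 5.62 CPM with lactate, against 10.8 and 6.22 CPM (-0.43 ± 0.37), and SPRED1 had 31.8 and 27.9 CPM, against 33.5 and 28.96 CPM (-0.06 ± 0.26). SPRED2 had 49.4 and 52.2 CPM, against 65.3 and 54.8 CPM in controls, without overlap, at -0.24 ± 0.20 (adjusted p = 0.975).

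**Figure D3:**
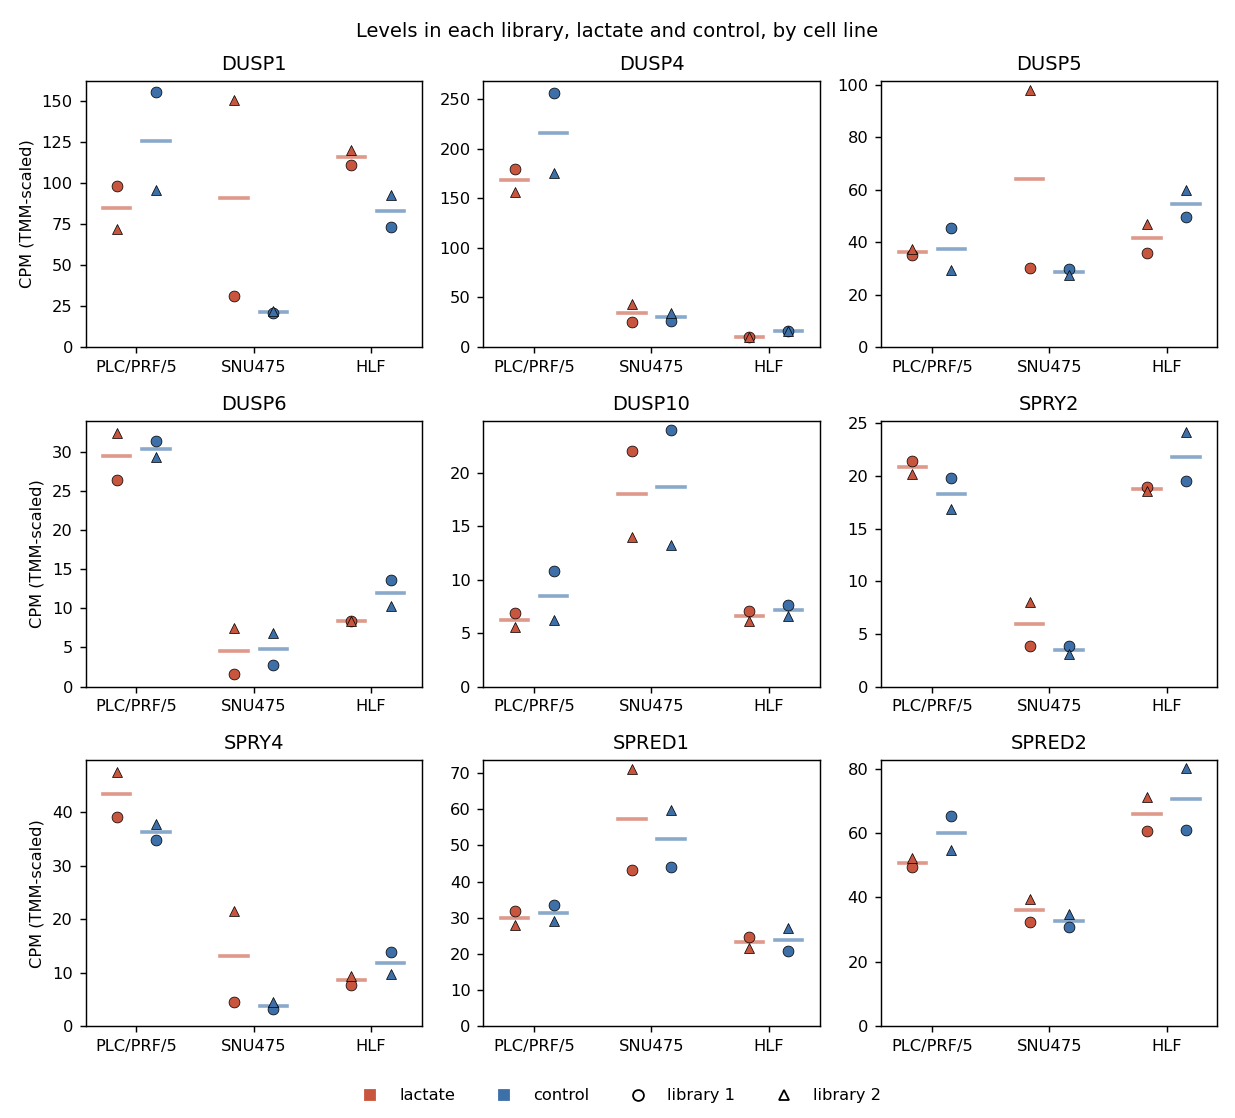
Each panel gives 1 gene, with CPM on an axis from 0, lactate (red) left of control (blue) for each line, circles for the first and triangles for the second library and a bar for the mean of 2. The SNU475 lactate triangle is far above the other SNU475 points for DUSP1 (151 CPM), DUSP5 (97.9 CPM) and SPRY4 (21.6 CPM).

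Averaged over the 3 lines, the lactate effect was 0.67 ± 0.30 for DUSP1 (unadjusted p = 0.0442, adjusted p = 0.300) and 0.16 without the second SNU475 lactate library. For this mean the edgeR test gave an unadjusted p under 0.05 in 1 of the 9 genes, beside 15.8% of all tested genes. The mean effect of SPRY4 was 0.52 ± 0.30 (adjusted p = 0.422) and that of DUSP4 -0.30 ± 0.16 (adjusted p = 0.383). The other 6 mean effects lay between -0.21 and 0.25. The interaction of lactate with line, which tests whether the 3 effects differ, had an unadjusted p of 0.0124 for DUSP1 and 0.0333 for SPRY4 and an adjusted p of 1 for both, beside 3.51% of all tested genes with an unadjusted p under 0.05.

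**Figure D4:**
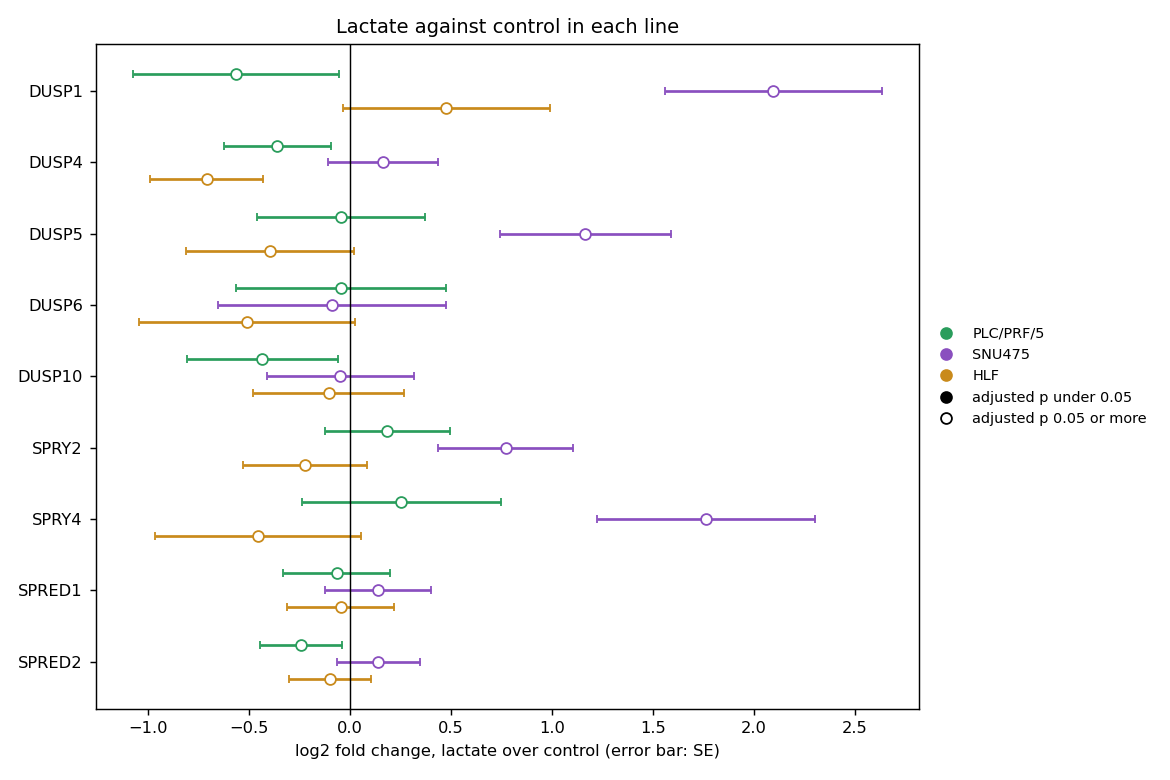
Points give the log2 fold change of lactate over control for each gene and line with its SE as a bar, all open because no adjusted p was under 0.05. The SNU475 points of DUSP1 (2.10), SPRY4 (1.76), DUSP5 (1.17) and SPRY2 (0.77) lie right of the other lines, and 8 of the 9 HLF points lie left of 0.

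Transcript length entered the TPM, most of all for DUSP6 and SPRED2. RSEM, which estimated the counts, gives each gene a length averaged over its transcripts in that library, and this length ran from 1944 to 3627 bases for DUSP6 and from 2024 to 4381 bases for SPRED2, against a fixed 2013 bases for DUSP1 and 2477 for DUSP5. The length ran from 2156 to 2589 bases for DUSP10, from 6256 to 7270 bases for SPRED1 and from 4600 to 5115 bases for SPRY4, and varied less for DUSP4 and SPRY2. In the second SNU475 lactate library SPRED2 was given 2024 bases, against 3629 to 3763 in the other SNU475 libraries. The TPM of SPRED2 was therefore 19.6 there, against 11.5 in the first lactate library and 9.90 and 9.22 in the controls, while its CPM of 39.7 differed little from 32.5, 30.7 and 34.8.

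Some of the 9 overlap other annotated genes (GENCODE release 29, GRCh38). The library kit marks strand, but the strand setting of the counting is not given in the sources used here. SPRY4 lies opposite SPRY4-AS1, whose counts were at most 12.4% of those of SPRY4 in a library, DUSP6 lies opposite AC024909.2 (at most 9.69%) and DUSP1 lies opposite AC022217.3 (at most 1.62%). How far reads from the opposite strand enter the counts of these 3 genes was not tested, and these shares set no limit on it. DUSP4, DUSP5, DUSP10, SPRY2 and SPRED1 overlap no other annotated gene.

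The rest of the 2 families gave the following. Of the 5 other MAP kinase phosphatases 0 were called for the mean lactate effect, and DUSP9, an ERK phosphatase, had the smallest p (1.37 ± 0.32, adjusted p = 0.0813). DUSP9 had 31.1 and 47.8 CPM with lactate, against 29.5 and 41.1 CPM in controls, in PLC/PRF/5, 4.98 and 9.29 CPM, against 1.74 and 2.82 CPM, in SNU475, and 1.09 and 0.42 CPM, against 0.20 and 0.11 CPM, in HLF. Lactate libraries of DUSP9 were above both controls in SNU475 and HLF and overlapped in PLC/PRF/5. Between untreated PLC/PRF/5 and HLF, 4 of the 5 were called (43.0% of all tested genes), with DUSP9 (7.85), DUSP8 (3.77) and DUSP16 (1.09) higher and DUSP7 (-1.42) lower. DUSP9 was near the floor in untreated HLF, with a mean of 0.15 CPM from 6 expected counts in all. The sizes of this DUSP9 difference and of its mean lactate effect are therefore uncertain.

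Of the 3 other Sprouty and Spred genes 0 were called for lactate. SPRY1 had 30.5 and 26.5 CPM with lactate, against 25.4 and 22.6 CPM in controls, in PLC/PRF/5, 3.67 and 5.22 CPM, against 1.41 and 1.32 CPM, in SNU475, and 4.17 and 6.497 CPM, against 5.66 and 5.80 CPM, in HLF (mean effect 0.61 ± 0.17, adjusted p = 0.121). Its groups overlapped in HLF and not in the other lines. For untreated PLC/PRF/5 against HLF, SPRY1 (2.07) was higher and SPRED3 (-4.96) lower, 2 of the 3 genes beside 43.0% of all tested genes. SPRED3 was near the floor in untreated PLC/PRF/5, with a mean of 0.28 CPM from 11 expected counts in all, against 8.89 CPM in HLF. The size of its fold change is therefore uncertain.

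Among genes that ERK is known to drive, 0 of 14 were called for lactate, and 10 of 14 differed between untreated PLC/PRF/5 and HLF, 5 in each direction, beside 43.0% of all tested genes. ETV4, an ETS factor, had 103 and 93.8 CPM in PLC/PRF/5, 2.81 and 4.66 CPM in SNU475 and 6.96 and 6.90 CPM in HLF (3.83 ± 0.56 for PLC/PRF/5 over HLF, adjusted p = 0.000213). That is the line order of SPRY4 and DUSP6. FOSL1, an AP-1 subunit, had 17.5 and 9.65 CPM in PLC/PRF/5, 64.2 and 145 CPM in SNU475 and 217 and 272 CPM in HLF (-4.18 ± 0.56 for PLC/PRF/5 over HLF, adjusted p = 0.000120). LIF and HBEGF, both secreted ligands, were also lower in PLC/PRF/5 than in HLF (-4.46 and -3.45). The output genes thus had no common order over the lines.

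Of 9 immediate early genes tested, the nuclear factors transcribed within minutes of a stimulus, 0 were called for lactate. NR4A1 had 5.41 and 28.5 CPM with lactate, against 1.52 and 1.78 CPM in controls, in SNU475, the second library being the higher as for DUSP1, and its mean effect was 1.49 ± 0.35 (adjusted p = 0.0841). EGR1 had 12.6 and 4.95 CPM with lactate, against 5.06 and 3.05 CPM in SNU475 controls, the first library being the higher there (mean effect 1.17 ± 0.34, adjusted p = 0.128). Between untreated PLC/PRF/5 and HLF, NR4A1 (6.78) and EGR1 (2.18) were higher and JUN (-2.11) lower, 3 of the 9 genes beside 43.0% of all tested genes.

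Of 16 cascade genes, 1 was called for the mean lactate effect, beside 0.420% of all tested genes. HRAS, a RAS protein, had 33.1 and 33.7 CPM with lactate, against 49.3 and 48.4 CPM in controls, in PLC/PRF/5, 33.5 and 29.9 CPM, against 51.01 and 56.1 CPM, in SNU475, and 45.2 and 60.3 CPM, against 74.7 and 73.7 CPM, in HLF. All 6 lactate libraries were below all controls of their line, and HRAS fell by 0.60 on the log2 scale (-0.60 ± 0.11, adjusted p = 0.0446). Of all tested genes, 50.3% in PLC/PRF/5, 31.6% in SNU475 and 39.6% in HLF had no overlap, in either direction. How many were below the controls in every line was not counted. The call of HRAS stood in 3 of the 12 fits that each left out 1 library, those without either SNU475 lactate library or the first SNU475 control. It was lost without any 1 of the other 9 libraries (adjusted p = 0.0677 to 0.209) and on log2(TPM + 0.5) with limma (-0.51, adjusted p = 0.186). These alternatives for HRAS were added after its value was seen. Between untreated PLC/PRF/5 and HLF 9 of the 16 were called, against 43.0% of all tested genes as for the next 2 lists, among them RPS6KA3 (2.23) and BRAF (1.88), both higher, and the scaffold KSR1 (-2.72), which was lower. Of 17 receptors and adaptors 0 were called for lactate and 8 for PLC/PRF/5 against HLF, where FGFR4 (5.63), ERBB3 (4.93) and FGFR3 (4.80) were higher and PDGFRB (-6.65) lower. Of 10 genes of the p38 and JNK cascades 0 were called for lactate, and for PLC/PRF/5 against HLF 3 were higher, among them MAPK9 (0.88) and MAPK14 (0.90), and 3 lower, among them MAPK13 (-4.60) and MAP2K3 (-1.27).

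Across the 12 libraries, which share 3 lines, DUSP6 and SPRY4 had a Pearson correlation of log2 CPM of 0.90, and 0.62 after each line's mean was subtracted. After that subtraction the closest pair of the 9 was DUSP5 and SPRY2 (0.94), followed by DUSP5 and SPRY4 (0.88), values to which the second SNU475 lactate library contributes. Of 12283 protein-coding genes, the 5 most like DUSP6 over the 12 libraries included FOXA2 (0.97), RABGGTB (0.96), ZNG1E (0.96) and RPL22L1 (0.96). Within lines they included RPL7 (0.97), RPS4X (0.97), CNRIP1 (0.96) and RPL4 (0.96). For SPRY4 they were GPR180 (0.98), GARS1 (0.98), SLC37A3 (0.98), SLC2A3 (0.97) and MOGS (0.96) over the 12 libraries, and SPTLC2 (0.97), SLC35E4 (0.97), TTI2 (0.97), RTN4RL1 (0.97) and SLC37A3 (0.96) within lines.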

How the data were processed

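Total RNA of 12 libraries was sequenced. Per the file headers, the deposited gene tables are RSEM output with expected counts, TPM values and lengths. Per the submitters' processing notes the tools were FastQC, STAR, RSEM and DESeq2 (versions not given) and the builds the mouse GRCm38 and mm10, although all identifiers are human. A human build and a strand setting are not named in the labels or headers. The 47 Y copies of pseudoautosomal genes (of 62757 rows) were added to their X copies, expected counts were rounded, and 18355 genes passed the filterByExpr default by group. In R 4.3.3, edgeR 4.0.16 (quasi-likelihood, robust, TMM factors 0.794 to 1.165) was fitted to 6 groups together, with 6 residual degrees of freedom, and checked on simulated counts. P-values were adjusted by Benjamini-Hochberg over all tested genes. Alternatives used DESeq2 1.42.0, limma 3.58.1 on the deposited TPM with a pseudocount of 0.5, other size factors, no filter, a replicate block and left-out libraries. The members and gene lists were chosen with earlier results of these data known. All 9 members are reported, and from each other list at most the 4 smallest p for the mean lactate effect and the 4 for PLC/PRF/5 against HLF. A few genes that this rule names are not reported here.

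Same-numbered libraries (numbers from the titles) deviated together at r = 0.132 in PLC/PRF/5, 0.446 in SNU475 and 0.101 in HLF over 18355 genes, so the numbers count as pairing them. The reported test has no pair term, and the replicate block is an alternative. For PLC/PRF/5 the title number 2 stands as 3 in the deposited names. With 2 libraries per group no 2 were copies (chi-square per degree of freedom 11.4 or more).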

Additional observations from a re-analysis of the deposited data

Results flagged for a closer look

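In 3 genes both lactate libraries lay on 1 side of both controls in 1 line and on the other side in another line. How many of all tested genes do so was not counted. Lactate and control libraries did not overlap for 50.3% of all tested genes in PLC/PRF/5, 31.6% in SNU475 and 39.6% in HLF. For DUSP5 the lactate effect in SNU475 minus that in HLF was 1.56 on the log2 scale. For SPRY2 the effect minus that in HLF was 0.41 in PLC/PRF/5 and 0.99 in SNU475. For SPRY4 it was 0.71 in PLC/PRF/5 and 2.22 in SNU475. The edgeR interaction test over the 3 lines did not pass for any of these genes (adjusted p = 1), and the pairs of lines were not tested singly. The SNU475 values rest on the second lactate library.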

How the results depend on the processing

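With 2 libraries a group, 1 library decides many values, and intervals on depth would cover counting error only. RLE and upper-quartile factors changed no count of members called. Over all tested genes the mean effect called 84 and 66 with them, against 77 as reported. With the replicate block, members called were 0 for each lactate comparison. They were 8 for SNU475 against HLF, 2 for PLC/PRF/5 against HLF and 8 for PLC/PRF/5 against SNU475, beside 39.1%, 43.1% and 48.7% of all tested genes. The block was set within each line for lactate and by library number across the lines for the untreated comparisons. It changed no call other than that of DUSP6 for SNU475 against HLF. Whether same-numbered libraries of different lines belong together was not tested. Lactate calls in SNU475 numbered 1 with DESeq2 and 3 (DUSP1, DUSP5, SPRY4) without the low-count filter, where the mean effect gave 1 and the interaction 3. Over all tested genes the filter's removal gave 1.29% called in SNU475, 2.87% for the mean effect and 0.424% for the interaction, and DESeq2 gave 1.49% in SNU475. The mean effect called 77 genes as reported, 977 with DESeq2, 922 without the filter, 1268 with the replicate block, 9 on the TPM scale, 530 without both SNU475 libraries numbered 2 and 0 to 1493 with 1 library left out. PLC/PRF/5 against HLF gave 4 calls without the filter, beside 24.9% of all tested genes. Leaving out 1 library at a time leaves 1 group with 1 library. Members called then varied for lactate in SNU475, the mean effect, the interaction and each of the untreated comparisons. The share of all tested genes called varied too. The cause was not tested.

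Signs turned only in differences that were not called. On the TPM scale DUSP10 (0.17) and SPRED1 (0.14) in HLF, DUSP5 in PLC/PRF/5 (0.046), the mean effect of SPRED2 (0.17) and SPRY2 for PLC/PRF/5 against HLF (0.059) turned, as did DUSP5 in PLC/PRF/5 with upper-quartile factors (0.0020). Without both SNU475 libraries numbered 2, DUSP4 (-0.11) and SPRED1 (-0.035) in SNU475 turned, as did the mean effects of DUSP5 (-0.14), SPRY2 (-0.0085) and SPRED1 (-0.047). Leaving out 1 library, the lactate effect in SNU475 ranged from -0.30 to 0.52 for DUSP4, -1.57 to 0.70 for DUSP6, -0.41 to 0.44 for DUSP10, -0.27 to 0.45 for SPRED1 and -0.014 to 0.28 for SPRED2. In HLF it ranged from -0.21 to 0.033 for DUSP10, -0.20 to 0.16 for SPRED1 and -0.26 to 0.11 for SPRED2, and in PLC/PRF/5 from -0.32 to 0.30 for DUSP5, -0.20 to 0.10 for DUSP6, -0.78 to 0.014 for DUSP10 and -0.17 to 0.044 for SPRED1. The mean effect ranged from -0.12 to 0.45 for DUSP5, -0.71 to 0.053 for DUSP6, -0.12 to 0.11 for SPRED1 and -0.12 to 0.0017 for SPRED2, and DUSP10 for PLC/PRF/5 against HLF from -0.19 to 0.60.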
